A study of Homo sapiens with 4 samples.

Results

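Acyl-CoA synthetases of the ACSM, ACSL and ACSS families were followed in OE33 cells depleted of ARID1A. The set was defined by gene symbol, with 10 named genes (ACSM1, ACSM3, ACSM5, ACSL1, ACSL3, ACSL4, ACSL5, ACSS1, ACSS2 and ACSS3), and every probe set paired with 1 of these genes alone was taken. By that rule 9 genes with 22 probe sets were found among the 18132 genes that had a probe set of their own, and ACSL3 was not analysed here. The medium-chain ACSM group held 3 genes and 5 probe sets, the long-chain ACSL group 3 genes and 9 probe sets, and the short-chain ACSS group 3 genes and 8 probe sets. The genes were chosen with the comparison of knockdown and mock cells already known, so their changes are given as a description and not as a test.

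OE33 is an established line grown from a human oesophageal adenocarcinoma. The cells received either a pool of siRNAs against ARID1A, a subunit of the SWI/SNF chromatin remodelling complex, or a non-targeting pool, called mock here, each at 50 nM in medium with 15% serum, and were harvested 48 hours later. Each condition had 2 biological replicates, so total RNA was measured on 4 Affymetrix PrimeView arrays, and the series asked which genes lie downstream of ARID1A. The model is a transient depletion in a single cell line, with no untransfected cells and no second siRNA pool among the arrays used here. ARID1A mRNA was 3.43-fold lower at its brightest probe set, with log2 levels of 7.53 and 7.53 under knockdown against 9.28 and 9.33 under mock. Its other probe sets had log2 changes of -1.61, -1.39, -1.37, -0.36 and 0.11, the last in the lowest 25% of signals. All values below are log2 levels as deposited by the authors, and a change is the knockdown mean minus the mock mean, with the standard error (SE) or 95% confidence interval of a limma fit over all probe sets.

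Acyl-CoA synthetases join a free fatty acid to coenzyme A at the cost of ATP, and only the resulting thioester can be oxidised, built into lipids or used to acylate proteins. The families differ in the chain length they prefer. ACSS enzymes take acetate and propionate, ACSM enzymes take butyrate and medium-chain acids such as octanoate in the mitochondrial matrix, and ACSL enzymes take the long-chain acids of membranes and stored fat. Epithelial cells of the gut draw on all of these pools, since they meet dietary fat as well as acetate, propionate and butyrate made by bacteria.

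Promoter sequences of the synthetases are shown for ACSS2, ACSL1 and ACSL5, the members with an entry in the promoter table whose brightest probe set was higher in both knockdown arrays than in both mock arrays. The windows run from 250 bases before a RefSeq transcription start to 50 bases after it, in build GRCh38.p14, and are printed 5′ to 3′ on the strand of the gene. RefSeq gave 2 starts for ACSS2, 5 for ACSL1 and 2 for ACSL5, and both windows of ACSS2 and the most upstream window of the other genes follow. Capitals mark every match, on either strand, to the GC box GGGCGG, the CCAAT box CCAAT, the E-box CACGTG, the sterol response element TCACNCCAC, the AP-1 site TGANTCA or the TATA box TATAAA.
ACSS2 upstream start, chr20:34874739-34875038, plus strand: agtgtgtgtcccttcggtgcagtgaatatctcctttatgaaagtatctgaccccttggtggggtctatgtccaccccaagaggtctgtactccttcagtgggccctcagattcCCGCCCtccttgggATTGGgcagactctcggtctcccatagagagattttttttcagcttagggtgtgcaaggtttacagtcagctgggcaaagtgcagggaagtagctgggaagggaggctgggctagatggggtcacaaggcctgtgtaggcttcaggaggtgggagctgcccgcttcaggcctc
ACSS2 downstream start, chr20:34876362-34876661, plus strand: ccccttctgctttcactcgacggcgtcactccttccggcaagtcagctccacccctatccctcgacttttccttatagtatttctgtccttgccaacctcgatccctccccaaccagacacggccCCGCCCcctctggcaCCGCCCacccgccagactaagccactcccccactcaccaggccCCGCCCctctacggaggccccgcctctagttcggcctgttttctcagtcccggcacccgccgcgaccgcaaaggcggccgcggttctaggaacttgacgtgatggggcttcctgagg
ACSL1 upstream start, chr4:184825919-184826218, minus strand: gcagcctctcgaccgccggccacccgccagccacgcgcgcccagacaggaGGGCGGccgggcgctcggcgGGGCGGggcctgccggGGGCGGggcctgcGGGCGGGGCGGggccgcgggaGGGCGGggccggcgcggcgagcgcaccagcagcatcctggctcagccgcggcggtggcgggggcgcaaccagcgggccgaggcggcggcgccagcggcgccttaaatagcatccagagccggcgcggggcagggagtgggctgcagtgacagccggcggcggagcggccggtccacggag
ACSL5 upstream start, chr10:112375018-112375317, plus strand: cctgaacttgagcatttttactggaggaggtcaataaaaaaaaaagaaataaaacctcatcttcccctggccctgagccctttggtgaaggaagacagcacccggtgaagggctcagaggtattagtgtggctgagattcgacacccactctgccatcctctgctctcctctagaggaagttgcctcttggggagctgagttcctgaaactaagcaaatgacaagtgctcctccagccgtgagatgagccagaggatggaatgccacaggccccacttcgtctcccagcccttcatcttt

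The windows differed in base composition. The ACSL1 window was 82.3% G and C with 47 CpG pairs, and held 6 GC boxes, of which 1 pair overlapped by 1 base. The downstream ACSS2 window was 64.3% G and C with 23 CpG pairs and 3 GC boxes, while the upstream ACSS2 window had 55.3%, 4 CpG pairs, 1 GC box and 1 CCAAT box 123 bases before the start. The ACSL5 window was 51% G and C with 4 CpG pairs, and held no match to the motifs searched. The median over all 35116 windows of the table was 58.7% with 14 CpG pairs, and 45% of them held a GC box, 34.6% a CCAAT box, 7.26% an E-box, 7.71% an AP-1 site, 11.5% a TATA box and 1.13% the sterol response element. No printed window held an exact match to the sterol response element letters TCACNCCAC, and variants of those letters were not searched. The most downstream of the 5 ACSL1 windows held 1 match to TCACNCCAC, 242 bases before its start. The third ACSL1 window held 1 AP-1 match. These matches describe letters and not binding, which was not measured.

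Across the members, ACSM3 had the largest change and ACSS2 the next, both higher in knockdown cells, and ACSL1 and ACSL5 had smaller positive changes. ACSM1, ACSL4 and ACSS1 lay near 0 at their brightest probe sets, and the dim ACSS3 lay slightly below. ACSM5 had probe sets of opposite sign, and its dimmer one, at -0.39, had the lowest change of all 22. Of the 22 probe sets 14 had a positive change and 8 a negative one, and their median was 0.12, against a median of 0.00 and 49.1% positive over all 49293 probe sets. Both probe sets of ACSM3 passed the limma test over all probe sets, the brighter one only narrowly (limma adjusted p = 0.0499 and 0.0376, threshold 0.05), and no other member did. Neither passed when probe sets ending in _s_at or _x_at were left out (limma adjusted p = 0.0552 and 0.0520). Over all probe sets 0.15% passed as higher and 0.166% as lower. Knockdown lay above mock on all arrays at 10 member probe sets and below it at 4, where 24.2% and 22.5% of all probe sets did the same. As the choice of members used this contrast, nothing is read from these counts. In RNA of whole cultures a change in RNA per cell and a change in the share of cells that express a gene cannot be told apart.

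**Figure D1:**
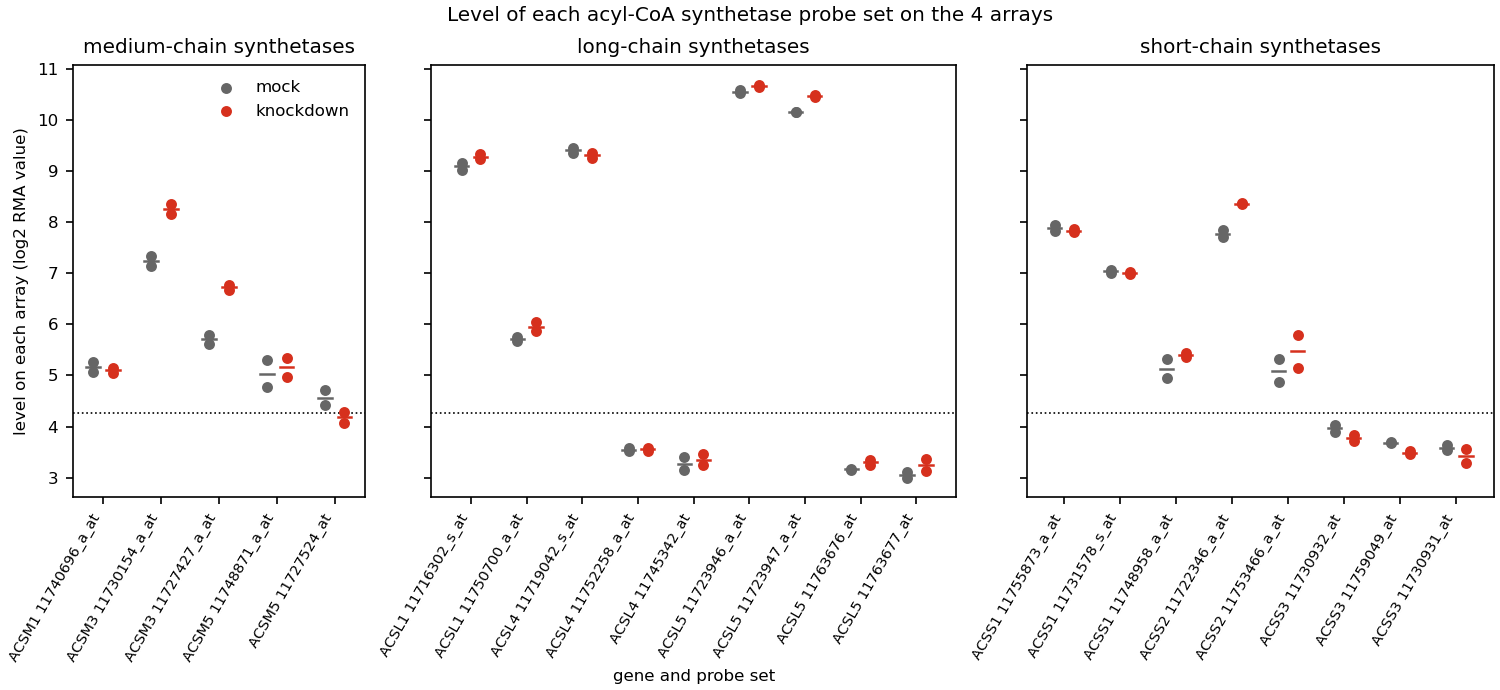
Log2 level (vertical axis) of each of the 22 synthetase probe sets (horizontal axis) on the 2 mock (grey) and 2 knockdown (red) arrays, in panels by chain length. Points are single arrays, short bars are group means, and the dotted line at 4.26 marks the lowest 25% of signals. The red points of both ACSM3 probe sets and of the brighter ACSS2 probe set lie clear of the grey ones. Levels of different probe sets are not comparable with each other.

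Among the medium-chain enzymes, ACSM3, a mitochondrial enzyme that activates butyrate and medium-chain acids, was 2.01-fold higher in knockdown cells. At its brighter probe set, 11730154_a_at, the levels were 8.15 and 8.36 under knockdown and 7.35 and 7.15 under mock. The groups did not overlap, and the gap between the nearest arrays exceeded the spread within either group. The log2 change was 1.01 (SE 0.110, 95% confidence interval 0.73 to 1.28), with means of 8.26 ± 0.147 and 7.25 ± 0.139 (SD, n = 2 each). A share of 0.0552% of the 18132 genes had a change at least as high.

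The other ACSM3 probe set, 11727427_a_at, was designed on a different reference transcript and gave levels of 6.68 and 6.77 under knockdown and 5.80 and 5.62 under mock. Its change was 1.02 (SE 0.0922, interval 0.79 to 1.24), a 2.02-fold difference. Both probe sets thus showed the same separation of the groups, though they read the same 4 RNA samples and are not independent replicates. With any 1 array left out, the change ran from 0.91 to 1.11 at the first probe set and from 0.93 to 1.10 at the second. With an array left out 0 probe sets passed anywhere on the array, against 156 with all 4 arrays, so that those settings hold no call for ACSM3 either.

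ACSM1, a mitochondrial enzyme that also activates butyrate, did not share this pattern. Its only probe set, 11740696_a_at, read 5.05 and 5.15 in knockdown and 5.08 and 5.25 in mock arrays, and the groups overlapped. The change was -0.06 (interval -0.29 to 0.17), and it was 0.03 without mock replicate 2. The interval of ACSM1 lay wholly below that of either ACSM3 probe set. As ACSM3 was chosen with this contrast known, this is a description and not a test between the genes.

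ACSM5, a less studied member of the family, gave probe sets of opposite sign. At 11748871_a_at the levels were 5.35 and 4.97 in knockdown and 4.77 and 5.30 in mock arrays, with a change of 0.13 (interval -0.39 to 0.64). The arrays of each group lay far apart there and the groups overlapped, and the change became -0.06 when knockdown replicate 1 was left out and -0.14 when mock replicate 1 was. At 11727524_at the levels were 4.08 and 4.29 in knockdown and 4.42 and 4.72 in mock arrays, a change of -0.39 (interval -0.71 to -0.07). The knockdown arrays were the lower pair at that probe set, whose mean of 4.38 lay just above the lowest 25% of signals (below 4.26). Without mock replicate 2 its change was -0.24. The ACSM5 probe sets therefore give no single direction for the gene.

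ACSM genes lie side by side on chromosome 16. In the RefSeq gene table the order is ACSM5, ACSM2A, ACSM2B, ACSM1 and ACSM3, followed by THUMPD1 and ERI2, and the spans of ACSM1, THUMPD1 and ERI2 overlap that of ACSM3. Of 11 genes of this region with a probe set of their own besides ACSM3, 5 had a positive and 6 a negative change, with a median of 0.00. In limma 0 of them passed, where 0.188% of all genes passed as higher and 0.215% as lower. At an unadjusted p below 0.05 there were 0 higher and 2 lower, where 9.76% of all genes were higher and 7.25% lower. Counts this small are not read as a result about the region. ERI2, an exonuclease gene, had a change of -0.20 (adjusted p = 0.263), and the neddylation factor gene DCUN1D3 of -0.33 (adjusted p = 0.267) and, at a dim second probe set, of 0.17. The changes of ERI2 at its other probe sets were -0.17, -0.17 and 0.39. THUMPD1, a tRNA modification factor whose gene overlaps the span of ACSM3, had a change of 0.00 at its brightest probe set. At its other probe sets the changes were 0.12 and 0.14. ACSM2A and ACSM2B, close relatives of ACSM3, had changes of 0.10 (SE 0.157) and 0.02 (SE 0.121).

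Among the short-chain enzymes, ACSS2, which makes acetyl-CoA from acetate in the cytosol and nucleus, was 1.501-fold higher at its brighter probe set. At 11722346_a_at the levels were 8.36 and 8.37 in knockdown and 7.85 and 7.71 in mock arrays. The knockdown arrays nearly coincided, and both lay above the mock arrays. The log2 change was 0.59 (SE 0.0826, interval 0.38 to 0.79), with means of 8.36 ± 0.00595 and 7.78 ± 0.103 (SD, n = 2 each), and it ran from 0.51 to 0.66 with any 1 array left out. It did not pass the limma test as fitted. It passed with each array centred on its median, with the lowest 25% of probe sets left out and with a prior that follows the level. In those settings 671, 487 and 3209 of all probe sets passed, against 156 as fitted. It did not pass under quantile normalization (limma adjusted p = 0.0564), without probe sets ending in _s_at or _x_at (limma adjusted p = 0.0813) or with the replicate number as a block. A share of 0.706% of genes had a change at least as high. As ACSS2 was chosen with this contrast known, these outcomes describe the settings and are not support for a change.

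The second ACSS2 probe set, 11753466_a_at, was far less precise. Its levels were 5.15 and 5.80 in knockdown and 5.33 and 4.87 in mock arrays, so the groups overlapped. The change of 0.38 (interval -0.24 to 0.99) became 0.05 when knockdown replicate 2 was left out and 0.15 when mock replicate 2 was. That probe set thus neither separated the groups nor bounded the change closely.

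ACSS1, the mitochondrial enzyme for acetate, showed no separation at its brighter probe sets. At 11755873_a_at the levels were 7.81 and 7.86 in knockdown and 7.94 and 7.84 in mock arrays, a change of -0.05 (interval -0.25 to 0.14). At 11731578_s_at they were 6.99 and 7.02 against 7.01 and 7.07, a change of -0.03 (interval -0.22 to 0.15). Groups overlapped at both. The dimmest probe set, 11748958_a_at, read 5.45 and 5.36 in knockdown and 4.95 and 5.33 in mock arrays, a change of 0.27 (interval -0.07 to 0.61). The mock arrays differed by more than the nearest arrays of the 2 groups, and the change was 0.08 without mock replicate 1. The intervals of the brighter ACSS1 probe sets lay below that of the brighter ACSS2 probe set, again as a description and not a test.

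ACSS3, a mitochondrial enzyme that prefers propionate, was dim at all 3 of its probe sets, each in the lowest 25% of signals. The levels at 11730932_at were 3.83 and 3.72 in knockdown and 4.03 and 3.89 in mock arrays, a change of -0.19 (interval -0.41 to 0.03). At 11759049_at they were 3.45 and 3.53 against 3.67 and 3.70, a change of -0.20 (interval -0.38 to -0.01). At 11730931_at they were 3.56 and 3.29 against 3.54 and 3.64, a change of -0.16 (interval -0.44 to 0.11), and without knockdown replicate 2 that change was -0.03. All 3 were negative, and the groups were separate at the first and second only. Signals this low are near the floor of the array, where a change of the transcript is compressed.

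Among the long-chain enzymes, ACSL5, which is abundant in intestinal epithelium and sits on mitochondria and the endoplasmic reticulum, was higher at all 4 of its probe sets in both knockdown arrays. At 11723947_a_at the levels were 10.46 and 10.48 in knockdown and 10.16 and 10.15 in mock arrays. The gap between groups far exceeded the spread within them. The change was 0.31 (SE 0.0706, interval 0.14 to 0.49), a 1.24-fold difference, and it ran from 0.30 to 0.33 with any 1 array left out. At the brightest probe set, 11723946_a_at, the levels were 10.65 and 10.69 against 10.52 and 10.59, and the change was 0.12 (interval -0.07 to 0.30).

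The remaining ACSL5 probe sets were in the lowest 25% of signals. At 11763676_at the levels were 3.35 and 3.26 in knockdown and 3.15 and 3.17 in mock arrays, a change of 0.14. At 11763677_at they were 3.37 and 3.14 against 3.12 and 3.001, a change of 0.20, and without knockdown replicate 1 it was 0.08. Groups were separate at both, though by little at the second.

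ACSL1, the main synthetase of fat-storing and fat-burning tissues, was also higher in both knockdown arrays at both of its probe sets. At 11716302_s_at the levels were 9.23 and 9.34 in knockdown and 9.16 and 9.03 in mock arrays, a change of 0.19 (interval -0.02 to 0.41). At 11750700_a_at they were 5.87 and 6.04 against 5.74 and 5.67, a change of 0.25 (interval 0.03 to 0.47). The groups were separate but close at both. The suffix of the first probe set marks probes that can also match other sequences. With 1 array left out the changes ran from 0.12 to 0.26 at the first and from 0.16 to 0.33 at the second, the lowest without mock replicate 2 and without knockdown replicate 2, and the values stayed positive.

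ACSL4, which prefers arachidonic acid and so supplies oxidisable membrane lipids, was the long-chain member with a negative value. At its bright probe set, 11719042_s_at, whose suffix again marks probes open to other sequences, the levels were 9.27 and 9.36 in knockdown and 9.45 and 9.36 in mock arrays. The nearest arrays of the groups read the same to 2 decimals, and the change was -0.09 (interval -0.29 to 0.11). It became -0.05 when knockdown replicate 1 was left out and also when mock replicate 1 was. Both other probe sets lay in the lowest 25% of signals. At 11752258_a_at the levels were 3.52 and 3.58 in knockdown and 3.51 and 3.58 in mock arrays, a change of 0.01. At 11745342_at they were 3.46 and 3.25 against 3.40 and 3.15, a change of 0.08. Groups overlapped at both, and each change turned negative when either of 2 single arrays was left out.

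**Figure D2:**
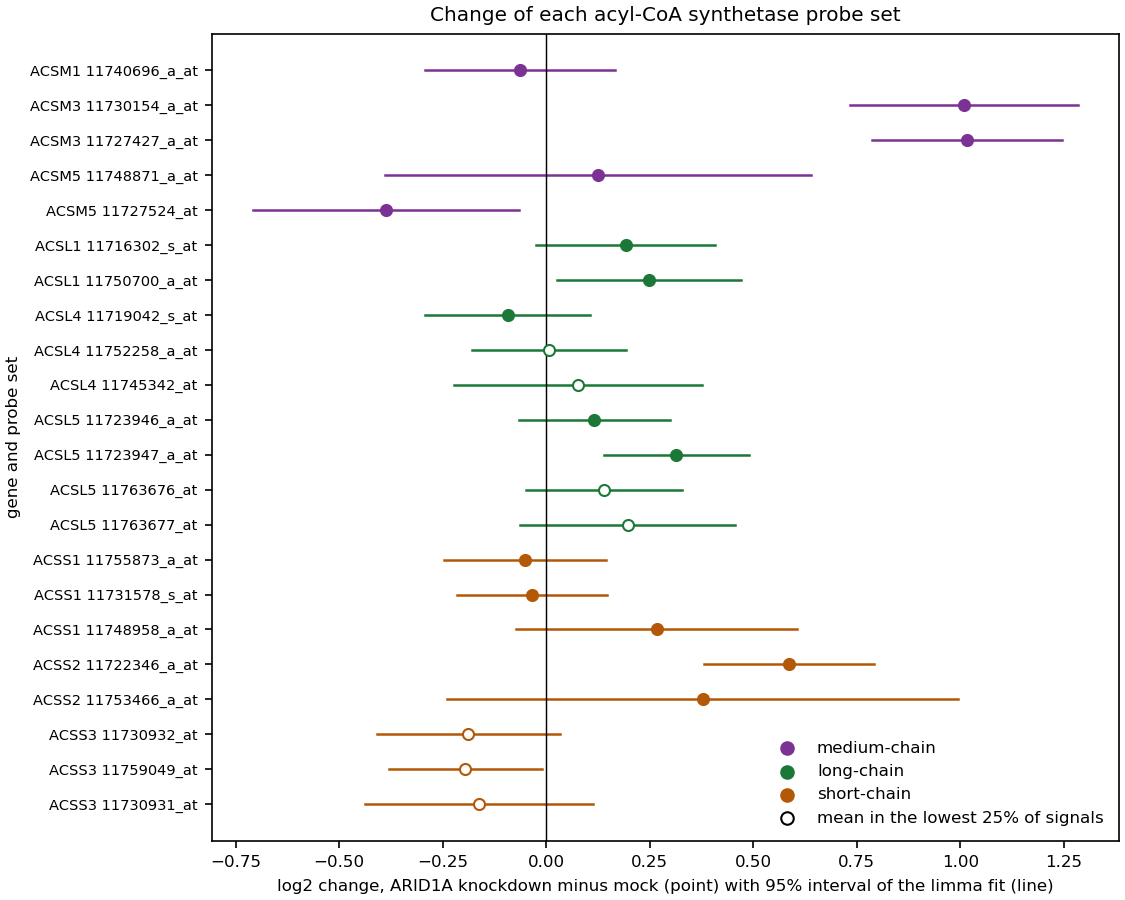
Log2 change (horizontal axis, knockdown minus mock) of each of the 22 probe sets (vertical axis), coloured by chain length, with the 95% confidence interval of the limma fit as a line. Open points have a mean in the lowest 25% of signals. Both ACSM3 points lie near 1, the brighter ACSS2 point lies at 0.59, and most other intervals cross 0.

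Signs of change were mixed within each chain-length class at the brightest probe sets. The intervals of ACSM3 and ACSS2 lay clear of 0 there, and those of the other members crossed it. As the members were chosen with this contrast known, the intervals settle no sign. With each gene taken at its brightest probe set, the median change was 0.13 for the medium-chain class (2 of 3 positive, range -0.06 to 1.01), 0.12 for the long-chain class (2 of 3, range -0.09 to 0.19) and -0.05 for the short-chain class (1 of 3, range -0.19 to 0.59). Over all 18132 genes the median was 0.00 and 48.6% were positive. The medians of the medium-chain and short-chain classes changed sign with other settings. With the mean over all probe sets of a gene they were -0.06 and 0.06, and without mock replicate 1 they were -0.14 and 0.00. Without knockdown replicate 1 the medium-chain median was -0.02 and the short-chain median -0.02. Without mock replicate 2 they were 0.39 and -0.10, and without knockdown replicate 2 they were 0.32 and -0.08. The long-chain median stayed positive in every setting run, from 0.09 without mock replicate 1 to 0.19 with the mean over all probe sets. Within the medium-chain and short-chain classes the spread between genes was much wider than between their medians. By probe set, the long-chain class had 8 of 9 positive changes, the medium-chain class 3 of 5 and the short-chain class 3 of 8.

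The patterns closest to those of ACSM3 and ACSS2 were sought among 12746 genes with a mean of at least 5, by the Euclidean distance between deviations from the gene's own mean over the 4 arrays. The nearest to ACSM3 were HOPX, an atypical homeodomain protein (distance 0.0175 log2 units), the calcium-binding protein S100A4 (0.0727) and the epithelial transcription factor ELF5 (0.0822). HOPX read 7.29 and 7.51 in knockdown and 6.47 and 6.29 in mock arrays. The nearest to ACSS2 were RCAN3, a regulator of calcineurin (0.0214), the mitochondrial protein ALKBH7 (0.0237) and the tetraspanin TSPAN1 (0.0343). With 4 arrays in 2 groups, such closeness says little beyond a like difference between the groups.

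The other genes of acyl-CoA metabolism were taken from 10 lists that hold 158 genes outside the synthetase set, of which 146 had a probe set of their own. In limma 0 passed over all probe sets, where 0.188% of all genes passed as higher and 0.215% as lower. At an unadjusted p below 0.05 there were 30 higher and 6 lower, so 20.5% were higher, where 9.76% of all genes were higher and 7.25% lower. Their median change was 0.04. With a variance prior that follows the level, 27 passed, 21 higher and 6 lower, and 5.28% of all genes passed as higher and 3.35% as lower in that setting. These genes share the arrays with the synthetases, and the lists were drawn up with earlier results known.

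Among the other acyl-CoA synthetases 8 of 17 changes were positive, the median was -0.02, and 0 passed in limma (at an unadjusted p below 0.05, 1 higher and 0 lower). ACSF2, a mitochondrial medium-chain synthetase outside the ACSM family, read 8.61 and 8.82 in knockdown and 8.12 and 8.08 in mock arrays. Its groups were well apart, with a change of 0.61 (SE 0.0940, limma adjusted p = 0.0769). AASDH, a distant relative, had a change of 0.18 (adjusted p = 0.321) and of 0.05 and 0.41 at its other probe sets.

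Thioesterases, which split acyl-CoA back into acid and coenzyme A, had 7 of 11 positive and a median of 0.08, with 0 past limma and, at an unadjusted p below 0.05, 3 higher and 0 lower. ACOT13, found at mitochondria, had a change of 0.53 (adjusted p = 0.0878) and the peroxisomal ACOT8 of 0.28 (adjusted p = 0.170). The other ACOT8 probe sets ran from -0.06 to 0.37. Proteins that bind acyl-CoA or fatty acids had 9 of 13 positive and a median of 0.02, with 0 past limma and 3 higher and 0 lower at that unadjusted p. FABP6, the ileal bile acid binding protein, had a change of 0.67 (adjusted p = 0.105), and ACBD5, a peroxisomal tether, of 0.28 (adjusted p = 0.211).

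The carnitine shuttle and beta-oxidation, which consume the products of ACSL and ACSM enzymes, had 22 of 27 positive and a median of 0.11. In limma 0 passed, and at an unadjusted p below 0.05 there were 8 higher and 0 lower. ETFDH, which passes electrons from fatty acid oxidation to ubiquinone, had a change of 0.34 (adjusted p = 0.119), and the thiolase ACAA2 of 0.44 (adjusted p = 0.136). PPAR receptors, which are activated by fatty acids, and their targets had 10 of 13 positive and a median of 0.08, with 0 past limma and 4 higher and 1 lower at that unadjusted p. PPARA read 7.48 and 7.61 in knockdown and 6.91 and 6.89 in mock arrays, a change of 0.65 (adjusted p = 0.0561). Its other probe sets ran from -0.19 to 0.65. The receptors did not share a direction, with a change of -0.47 for PPARD and of 0.23 for PPARG. PDK4, a kinase that restrains glucose oxidation, had a change of 0.50 (adjusted p = 0.0963).

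Fatty acid synthesis and sterol regulation, to which ACSS2 supplies acetyl-CoA, had 12 of 16 positive and a median of 0.11, with 0 past limma and, at an unadjusted p below 0.05, 5 higher and 0 lower. The desaturase SCD had a change of 0.38 (adjusted p = 0.106) at its brightest probe set and of 0.51 to 0.60 at its others, and INSIG1 of 0.51 (adjusted p = 0.110). The use of acetate and propionate had 9 of 12 positive and a median of 0.13, with 0 past limma and 4 higher and 0 lower. PCCA and PCCB, the subunits of propionyl-CoA carboxylase, which takes the product of ACSS3, had changes of 0.24 each (adjusted p = 0.224 and 0.223).

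Acyltransferases and lipid droplet genes, which store the products of ACSL enzymes, had 12 of 28 positive and a median of -0.02, with 0 past limma and, at an unadjusted p below 0.05, 2 higher and 3 lower. GPAM, the first acyltransferase of glycerolipid synthesis, had a change of -0.49 (adjusted p = 0.0819) and of -0.42 to -0.39 at its other probe sets. AGPAT2, an enzyme of the next step, had a change of 0.37 (adjusted p = 0.119). AGPAT1, AGPAT4 and AGPAT5 of the same list had changes of -0.25, 0.10 and -0.05, so the AGPAT genes gave no single direction. The lipid peroxidation and ferroptosis list, in which ACSL4 acts, had 1 of 13 positive and a median of -0.07, with 0 past limma and 1 higher and 2 lower. The peroxidase GPX4 had a change of 0.32 (adjusted p = 0.144) and the cystine transporter SLC7A11 of -0.28 (adjusted p = 0.171) and, at its other probe sets, of -0.20 and 0.12. Glycine conjugation, a fate of medium-chain acyl-CoA in liver, had 1 of 4 positive, with 0 past limma and 0 at an unadjusted p under 0.05. Of these genes 3 lay in the lowest 25% of signals, and GLYAT had a change of -0.23 (adjusted p = 0.390) and GLYATL2 of -0.11 (adjusted p = 0.553).

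**Figure D3:**
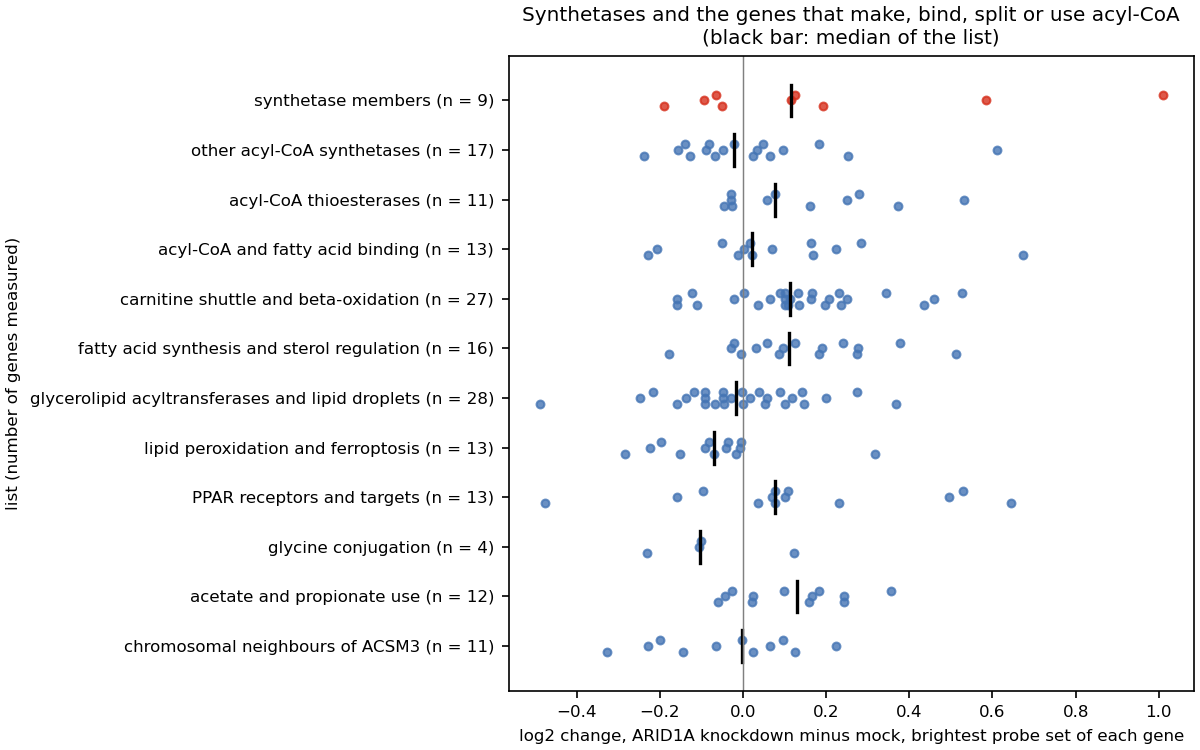
Log2 change (horizontal axis, knockdown minus mock, brightest probe set) of each measured gene in the synthetase set (red) and in the other lists (blue), with the median of each list as a black bar. ACSM3 at 1.01 and ACSS2 at 0.59 are the rightmost red points, and the black bars lie between -0.10 and 0.13.

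The labelled cell type was checked against markers. All 8 epithelial markers were bright, with means from 11.26 to 14.57. The immune markers (7 measured) had means from 3.18 to 6.43, the fibroblast markers (6) from 2.81 to 5.58, the endothelial markers (5) from 4.47 to 6.12, and the hepatocyte and kidney tubule markers (5), tissues in which ACSM genes are high, from 3.96 to 6.61. The mean log2 level of the last list was 5.38 and 5.18 in knockdown and 5.31 and 5.43 in mock arrays, with 1 of 5 positive, so the groups overlapped. All 5 endothelial markers were lower in knockdown, with a median of -0.20, and in limma 3 of them had an unadjusted p below 0.05 and 0 passed after adjustment. Their mean log2 level was 5.29 and 5.26 in knockdown and 5.43 and 5.48 in mock arrays, and its part in the synthetase changes was not tested. Of the immune markers 5 of 7 were lower, and their mean log2 level was 4.54 and 4.48 in knockdown and 4.57 and 4.58 in mock arrays, which did not overlap. Of the fibroblast markers 5 of 6 were lower, with means of 4.33 and 4.19 against 4.33 and 4.44, which overlapped. Of the epithelial markers 7 of 8 were higher, with a median change of 0.04 and means of 12.98 and 12.99 against 12.96 and 12.97, which did not overlap. At an unadjusted p below 0.05 in limma there were 1 lower immune, 1 lower fibroblast and 0 epithelial markers, and 0 passed after adjustment. Over all genes 9.76% were higher and 7.25% lower at that unadjusted p, and 0.188% and 0.215% passed after adjustment. Of all single probe sets, 24.2% had knockdown above mock on all arrays and 22.5% below. Marker counts this small are not read as a result, and the part of these lists was not tested either. The 3′ minus 5′ signal of the beta-actin control, a measure of RNA integrity, was 1.21 and 1.10 in knockdown and 1.04 and 0.995 in mock arrays, so it was higher in both knockdown arrays, and its part was likewise not tested. The same measure of the GAPDH control was 0.201 and 0.215 in knockdown and 0.199 and 0.211 in mock arrays, and there the groups overlapped.

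**Figure D4:**
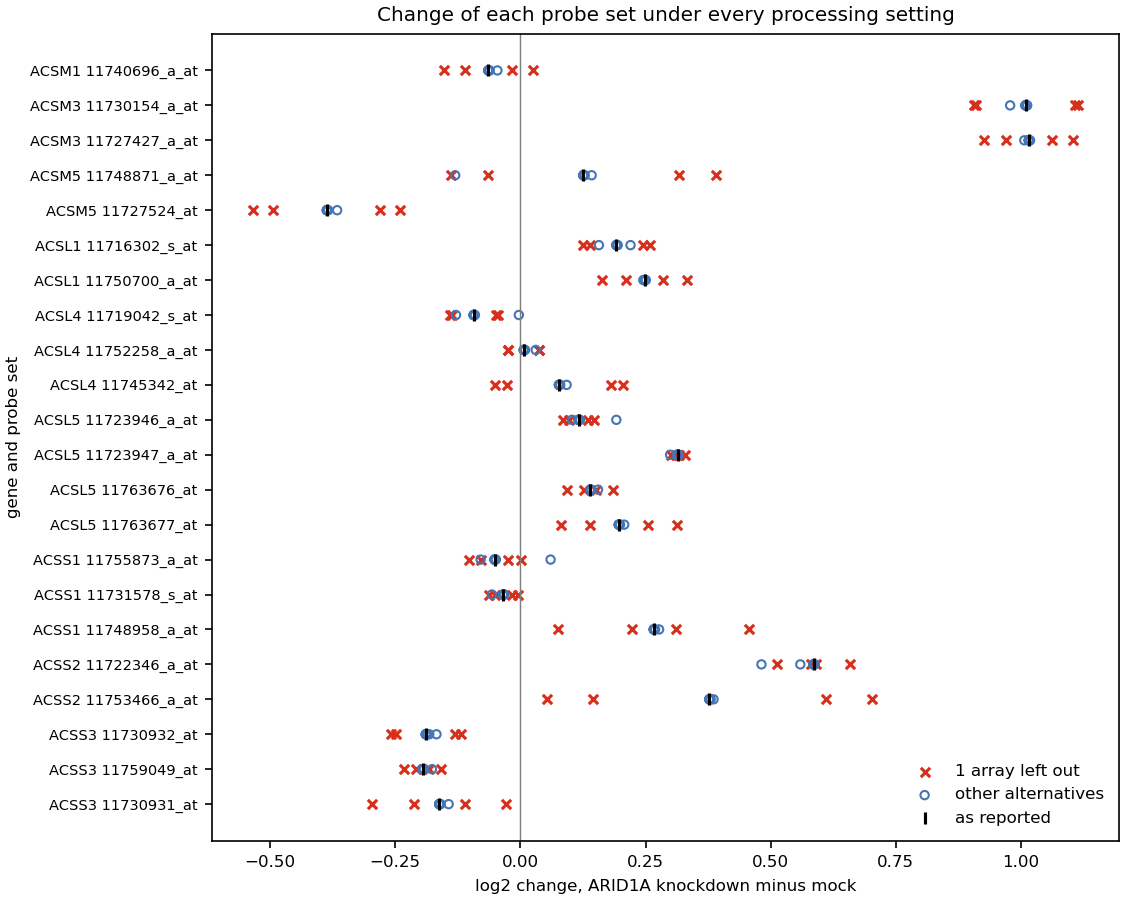
Log2 change (horizontal axis) of each of the 22 probe sets (vertical axis) as reported (black), with 1 array left out (red crosses) and under the other processing settings (blue circles). Both ACSM3 probe sets stay between 0.91 and 1.11, while the dimmer ACSS2 probe set spreads from 0.05 to 0.70 and the brighter ACSM5 probe set from -0.14 to 0.39.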

How the data were processed

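RNA of 2 knockdown and 2 mock cultures of OE33 cells, grouped by the sample titles, was measured on 4 arrays. The authors deposited log2 expression per probe set, and the submitters' processing notes name RMA and Partek without version or role. That the scale is log2 follows from RMA and the range of the values. RMA compresses changes of dim probe sets and hides a change in total mRNA.

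Of 49372 probe sets, 79 controls were left out and 49293 were tested with limma 3.58.1 (lmFit and eBayes, R 4.3.3), two-sided, with Benjamini-Hochberg adjustment and a threshold of 0.05. With 2 residual degrees of freedom, and 3.62 more from the prior, the number of arrays limits every value. The platform annotation gave 1 gene for 44988 probe sets, several for 1832 and none for 2473, and no symbol was updated. A gene outside the members was represented by its brightest probe set. Probe sets in the lowest 25% of means (below 4.26) were treated as dim. The fit was also run on simulated independent normal values, with variances drawn from its own fitted prior. That run held no batch effect and no variance that follows the level, so it cannot show how the fit behaves under either. Promoter sequences came from RefSeq (GRCh38.p14) for 8 of the 10 genes.

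The members and lists were chosen with earlier results of these data known. Named were every member, ARID1A and, of each list, any gene past the test or else the 2 with the smallest unadjusted p, beside 3 nearest patterns for ACSM3 and ACSS2. THUMPD1, ACSM2A, ACSM2B, AGPAT1, AGPAT4, AGPAT5, PPARD and PPARG were added after their values were seen. Same-numbered arrays deviated from their group means with a correlation of -0.20 over probe sets, and the labels do not say that numbers mark a shared culture, so no pairing was used.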

Additional observations from a re-analysis of the deposited data

How the results depend on the processing

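The count of 156 probe sets past the test was 671 with each array centred on its median, 297 under quantile normalization, 487 without the lowest 25% of probe sets, 3209 with a variance prior that follows the level (trend) and 23 without probe sets ending in _s_at or _x_at. It was 0 with the replicate number as a block, 0 with a crossed replicate block, which was chosen after seeing the data, and 0 to 0 with 1 array left out. In those settings 1 residual degree of freedom is left. The count of pathway list genes past the test, 0 as reported, was 2 with centred arrays (PPARA and ACSF2), 1 under quantile normalization, 1 without the lowest 25%, 27 with the trend and 0 in all other settings. Both ACSM3 probe sets passed with centred arrays, under quantile normalization, without the lowest 25% and with the trend, and neither passed without probe sets ending in _s_at or _x_at (limma adjusted p = 0.0552 and 0.0520), with either block or with 1 array left out. The brighter ACSS2 probe set passed in the same settings except quantile normalization, and ACSL5 11723947_a_at with the trend. The medium-chain median (0.13) was -0.064 with the mean over probe sets and ran from -0.14 to 0.39 with 1 array left out. The short-chain median (-0.05) was 0.27 without the lowest 25%, where ACSS3 drops out, 0.060 with the mean over probe sets, and -0.103 to 0.00042 with 1 array left out. The long-chain median (0.12) was 0.19 with the mean over probe sets and 0.085 to 0.135 with 1 array left out. Signals in the lowest 25% (7 of the 22 probe sets) limit what can be said of ACSS3 and of the dim ACSL4 and ACSL5 probe sets.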
